A study of Nannochloropsis oceanica strain IMET1 with 6 samples.

Results

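The genes of Nannochloropsis oceanica with the longest total intron sequence were described in messenger RNA from the insertional mutant HLM23 and the wild type (WT). For each gene of the deposited table, the listed gene length was taken from the span between its first and last base, and the gene was kept where at least 3000 bases remained. These 224 of 9552 listed genes (2.35%) are called long-intron genes here, and the remainder of the span is called non-exonic. The table lists neither exons nor introns, so the remainder is intron sequence only as far as the listed length is the sum of the exons. N. oceanica strain IMET1 is a single-celled marine alga that stores oil, and both strains share this background. HLM23 (genotype NO06G03670-) carries an insertion that disrupts NO06G03670, which codes for a transcription factor of the APETALA2 kind, and the WT control carries none. Each strain gave 3 libraries from cultures of 25 ml started at an optical density of 0.1 and given air with 0.2% CO2 at 25 °C, with 16 h of light (600 μmol of photons a second for each square metre) and 8 h of dark a day. Cells were harvested after 3 days, 1 h before the dark phase. HLM23 is 1 insertion strain, and no label says that replicates were grown apart, so the p-values cover the spread among these libraries alone, which may be technical.

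Introns are transcribed with the gene and cut out of the RNA by the spliceosome, so they lengthen the transcribed unit without adding to the messenger RNA. In compact genomes of single-celled algae most introns are short, and genes with many or long introns are the exception. Long introns can hold regulatory sequence and can contain whole genes. No gene of the table is paired with a description, and none of its IDs matched the 160 organelle genes of the reference used here, so functions are not assigned, and an ID is printed for 2 rising and 2 falling genes. Positions come from the deposited table, on a build not stated in what was used here.

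The long-intron genes were long in both parts of their span. Their non-exonic span ran from 3002 to 12957 bases with a median of 3970, whereas the median over all listed genes was 238 and 2727 genes (28.5%) had none. It was under 4000 bases in 113 of them, at least 5000 in 60 and at least 10000 in 8. The listed gene length ran from 711 to 16137 bases with a median of 3684, against 1874 in all other genes. The share of the span that was non-exonic had a median of 51.8%, and 136 of the 224 held more non-exonic than exonic bases, as did 516 other genes. With 2.35% of the genes and 4.38% of the summed gene length, they held 20.9% of all non-exonic bases, which follows from the rule but gives its size. The length behind the FPKM values of the authors was shorter than the listed length in 58 of them, at a median of 94.5% of the listed length over the 1283 listed genes where it differed, and longer in none. With that length all 224 stayed above 3000 bases and 18 further genes joined them.

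**Figure D1:**
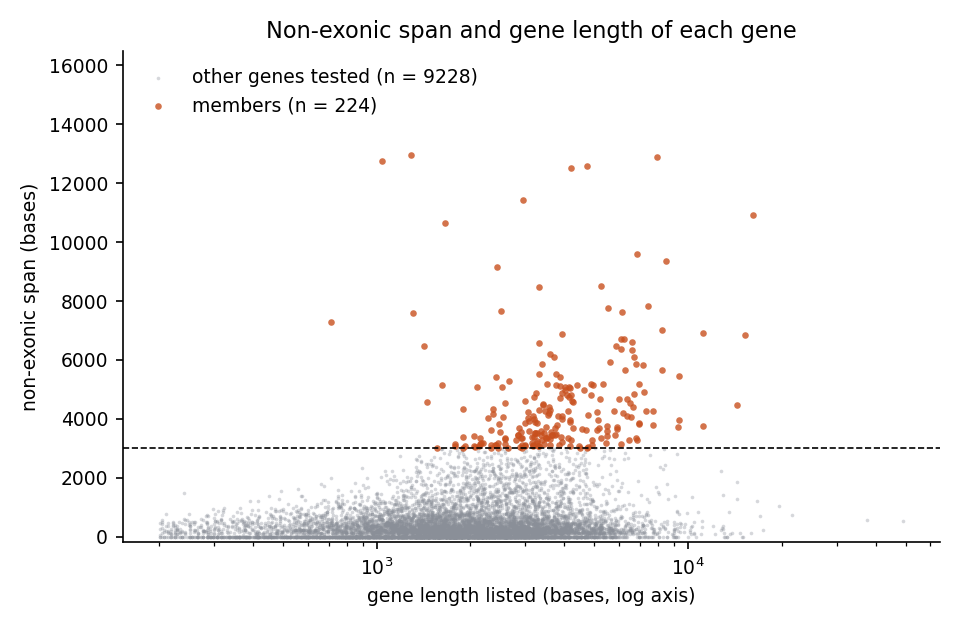
Non-exonic span in bases against listed gene length in bases (log axis) for the 9452 genes tested, with the 224 long-intron genes (labelled members) in orange and the limit of 3000 bases as a dashed line. Most genes lie close to 0 at every gene length, and the long-intron genes reach 12957 bases.

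Long-intron genes lay towards the ends of the chromosomes. Of the 224, 203 (90.6%) lay within 200 kb of the first base or the last listed base of their chromosome, against 2914 other genes (31.2%). Chromosome lengths are not in the table, so the end of the last listed gene stood for the chromosome end. The median distance to the nearer end was 96.5 kb for long-intron genes and 291.6 kb for the others. They made up 6.06% of the genes within 10 kb of an end, 8.56% from 10 to 25 kb, 8.49% from 25 to 50 kb, 7.88% from 50 to 100 kb and 5.24% from 100 to 200 kb. Farther in, they made up 0.326%, or 21 of 6435 genes. The share was thus highest between 10 and 50 kb and fell below 1% in the interior. On the 14 chromosomes whose last gene ends beyond 1000 kb, 93 of 107 long-intron genes (86.9%) lay within 200 kb of an end, against 24.3% of all genes there. Of the other genes with spans at least as long as the shortest long-intron gene (4567 bases), 483 of 1148 (42.1%) lay within that distance. The other genes followed the same course at smaller sizes. Their median non-exonic span was 320 bases within 10 kb, 650 from 25 to 50 kb and 175 beyond 200 kb, while their median gene length was 1794 from 25 to 50 kb and 1878 beyond 200 kb. Every one of the 30 chromosomes held long-intron genes, from 2 on chromosome 2 (0.345% of its genes) to 12 on chromosome 19, and the share was highest on chromosome 27, at 6.18%.

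**Figure D2:**
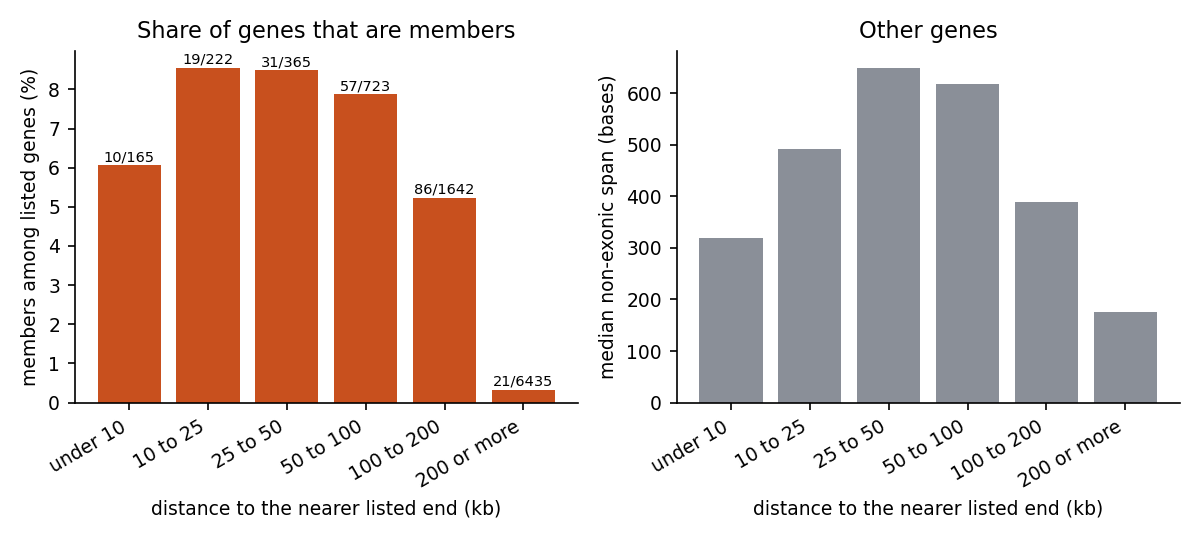
Left, the share of listed genes that are long-intron genes (members), in percent, by distance to the nearer listed chromosome end in kb, with the numbers of genes over the bars. Right, the median non-exonic span of the other genes in bases by the same distance. Both are lowest at 200 kb or more, at 0.326% and 175 bases.

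Overlap with other listed genes was more frequent than in genes of like length. Genes of like length are all other tested genes in the same class of listed gene length, with 10 classes weighted by the number of long-intron genes in each. An overlap on either strand was found for 62 long-intron genes (27.7%), against 18.7% of genes of like length and 20.7% of genes of like total span. On the same strand 7 of them overlapped another gene. A whole listed gene lay inside the span of 15 long-intron genes (6.70%), against 0.437% at like length and 0.368% at like span. These 15 hosts held 28 tested genes, whose median length was 670 bases. Of the 28, 0 were called higher and 4 lower in HLM23 in limma at an adjusted p under 0.05 (10 at an unadjusted p under 0.05). The share called lower, 14.3%, was close to that of all tested genes (14.3%), of which 14.5% were called higher. Reads at an overlap can be shared or dropped in counting, and how strands were handled is not stated in what was used here, so the values of these genes are less certain.

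Each library held 15331673 to 18711316 reads on genes, worked out from the deposited values. In a principal component analysis of all tested genes, the first component (62.0% of the variance) set the strains apart. On it HLM23 ranged from -43.6 to -24.8 and the WT from 20.2 to 48.5, with the replicate 2 library of each strain closest to the other strain. NO06G03670 was still transcribed in HLM23, at normalised read counts of 1073, 982 and 777 in replicates 1, 2 and 3, against 2164, 1664 and 1682 in the WT. Its non-exonic span is 184 bases, so it is not a long-intron gene. In the long-intron genes the Spearman correlation across genes was 0.944 to 0.981 between HLM23 libraries, 0.965 to 0.979 between WT libraries and 0.834 to 0.962 between strains. The highest value between strains again joined the replicate 2 libraries, and it exceeded the 0.945 between HLM23 replicates 2 and 3.

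The level per kb of gene length of the long-intron genes was higher than that of genes of like length. Levels are normalised read counts, which are gene reads that the authors scaled between libraries, divided by the listed gene length in kb. Over the 6 libraries the median level was 364 reads per kb with quartiles at 200.6 and 647, and the median of genes of like length was 204. The ratio was 1.88, 1.98 and 1.67 in HLM23 replicates 1, 2 and 3 and 1.91, 1.84 and 2.06 in the WT, so it was above 1 in 6 of 6 libraries. The mean ratios of 1.84 ± 0.155 (HLM23) and 1.94 ± 0.111 (WT; SD, n = 3) differed by less than the spread between libraries. Above the median of their own length class were 169 of the 224 (75.4%). The gap was seen in each length class from 1500 bases upwards. From 3000 up to 4000 bases the medians were 422 in 69 long-intron genes and 219 in 1101 others, and from 5000 up to 7000 bases they were 263 in 44 and 161 in 347. In the class from 1000 up to 1500 bases, with 5 long-intron genes, the order was the other way, at 314 against 417, as it was for the 1 long-intron gene under 1000 bases, at 332 against 545. Against genes of like total span the ratio was 2.25, but these are not matched for gene length, by which the level is divided. Among other genes the median level per kb fell with gene length, from 545 under 1000 bases to 93.9 at 10000 or more. Among other genes the level per kb also differed with non-exonic span, from a median of 213 with no non-exonic base to 401 with 500 up to 1000 and 428 with 2000 up to 3000. Within the long-intron genes it was 341 from 3000 up to 4000 bases, 496 up to 5000, 405 up to 8000 and 326 beyond.

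**Figure D3:**
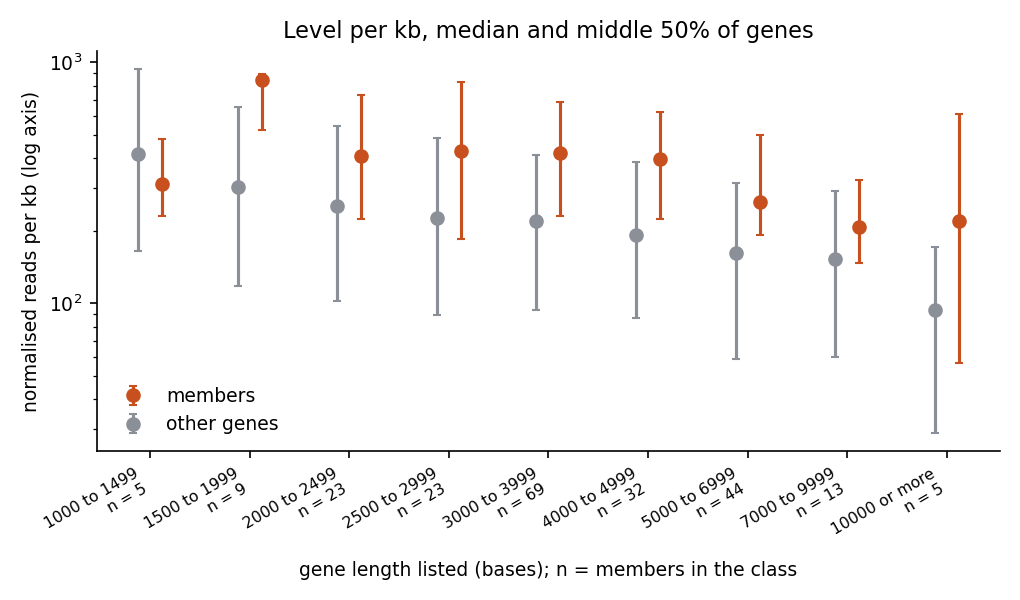
Level in normalised reads per kb of gene length (log axis) by class of listed gene length, for long-intron genes (members, orange) and other genes (grey). Points are medians over genes, bars span the middle 50% of genes, and the class under 1000 bases, with 1 long-intron gene, is left out. From 1500 bases upwards each orange median lies above the grey one.

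Few long-intron genes were near silent. All 224 passed the filter of a mean of at least 1 read over the 6 libraries, and 7 (3.12%) had a mean under 100, against 12.02% of genes of like length. Only 1 was listed at 0 in any library. The gene at chr18:22260-41071 was chosen for mention after its values were seen, since its mean lies under the 10 reads required for naming. It stood at 5.43, 3.90 and 4.998 in HLM23 replicates 1, 2 and 3 and at 0, 0.958 and 0 in the WT (limma adjusted p = 0.05 after rounding), and no ratio is given because its WT values lie at 0 or about 1 read. Together the long-intron genes took 3.22% ± 0.397 (SD, n = 3) of all normalised reads of HLM23, against 3.16% ± 0.102 for the WT. By library the shares were 3.391%, 3.497% and 2.762% in HLM23 replicates 1, 2 and 3. They were 3.273%, 3.071% and 3.147% in the WT, so the strains overlapped. The most abundant long-intron gene had an HLM23 mean of 4.07 times its WT mean, so leaving it out lowers the HLM23 shares more. Without this gene the shares were 2.67%, 2.85% and 2.05% in HLM23 and 3.12%, 2.87% and 2.95% in the WT. Each HLM23 share then lay below each WT share, by as little as 0.021 percentage points. That order was seen only with this gene left out, so it is not a strain difference of the whole group.

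Between the strains, the long-intron genes were called about as often as others, and their calls leaned to lower levels in HLM23. Calls are genes with a limma adjusted p under 0.05 over all 9452 genes tested, a threshold that 28.9% of all tested genes passed. Of the long-intron genes 75 passed (33.5%), against 33.0% of genes of like length, so the share called was near its background. Higher in HLM23 were 22 (9.82%), against 14.5% of all tested genes and 14.5% at like length. Lower were 53 (23.7%), against 14.3% of all tested genes and 18.5% at like length. Against genes of like total span the lean was smaller, as 13.0% of those were called higher and 22.6% lower. With changes of at least 2-fold there was little lean, with 14 higher (6.25%, against 7.66% of all tested genes) and 15 lower (6.70%, against 5.24%). The strains did not overlap in 34 long-intron genes with HLM23 higher (15.2%, against 24.2% of all tested genes) and in 79 with HLM23 lower (35.3%, against 22.8%). Without WT replicate 1 the calls were 20 higher and 25 lower, and without WT replicate 3 they were 19 higher and 24 lower. The share called then exceeded that at like length by 1.37 and 0.082 percentage points, so calls fell in genes of like length as well. Shares by direction at like length were not worked out for these fits.

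The median log2 fold change of the long-intron genes was -0.21, against -0.068 for genes of like length and -0.0022 for all genes tested. Below 0 were 151 of 224 (67.4%), against 54.9% at like length and 50.1% of all tested genes. This shift rested largely on 1 library. Relative to the mean of all 6 libraries, the median deviation of the long-intron genes was -0.0067, 0.045 and -0.31 in HLM23 replicates 1, 2 and 3 and 0.16, 0.046 and 0.14 in the WT, in log2. HLM23 replicate 3 stood lowest, and both replicate 2 libraries lay at nearly the same value. Less the same value in genes of like length, the deviations were 0.00032, 0.042 and -0.25 in HLM23 and 0.098, 0.026 and 0.11 in the WT, or -0.069 ± 0.16 against 0.079 ± 0.047 (SD, n = 3). The strains overlapped on this scale, and their difference was smaller than the spread in HLM23. Without HLM23 replicate 3 the difference between long-intron genes and genes of like length was -0.058 in place of -0.14, with 26 calls higher and 47 lower. The share called then exceeded that at like length by 1.29 percentage points. HLM23 replicate 3 gave the lowest of the 6 values in 117 long-intron genes (52.2%), against 29.1% of genes of like length. What sets HLM23 replicate 3 apart was not tested. Without both replicate 2 libraries the difference in median change was -0.24, with 21 calls higher and 55 lower. The share called then exceeded that at like length by 6.77 percentage points.

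**Figure D4:**
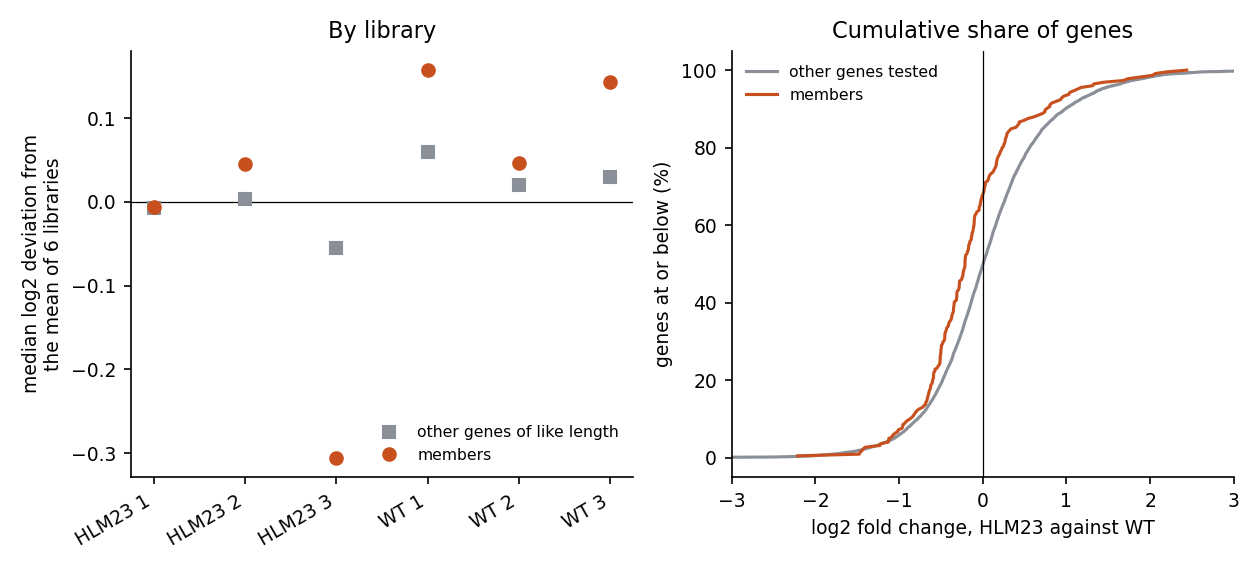
Left, the median log2 deviation of each library from the mean of the 6 libraries, for the 224 long-intron genes (members, circles) and for genes of like length (squares). Right, the cumulative share of genes in percent by log2 fold change of HLM23 against WT. HLM23 replicate 3 lies lowest at -0.31, and the curve of the long-intron genes passes 0 at 67.4%.

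The median change lay below 0 in each class of intron length, level and position. The median log2 fold change was -0.17 in the 113 genes with 3000 up to 4000 non-exonic bases, -0.25 in the 51 with up to 5000, -0.24 in the 47 with up to 8000 and -0.31 in the 13 with 8000 or more. It was -0.078 in the 826 tested genes with 1000 up to 2000 bases and 0.020 in the 2678 with none. Of the 13 with 8000 or more, 10 (76.9%) overlap a listed gene. These classes were not matched for gene length, whose median was 1665 bases with no non-exonic base and 3357 with 3000 up to 4000. Among other genes the median change was 0.066 under 1000 bases of gene length, -0.056 from 3000 up to 4000 and -0.15 from 4000 up to 5000. By listed gene length the median of the long-intron genes ran from -0.45 in the 23 genes from 2000 up to 2500 bases, with 4 called higher and 7 lower, to 0.030 in the 23 from 2500 up to 3000 bases, with 5 higher and 1 lower. Of the other genes in these classes, 15.1% and 14.7% were called higher and 15.1% and 13.8% lower. The class under 1000 bases holds a single long-intron gene, at 0.32, and is left out of this range. In 4 equal classes by level per kb, from lowest to highest, it was -0.18, -0.26, -0.17 and -0.23. Long-intron genes that overlap no listed gene had a median of -0.20, with 17 of 162 called higher (10.5%) and 35 lower (21.6%). Those that overlap one had -0.26, with 5 of 62 called higher (8.06%) and 18 lower (29.0%), where 14.5% of all tested genes were called higher and 14.3% lower. By distance from a chromosome end the median lay between -0.31 and -0.14 in all 6 classes, whereas that of other genes lay between -0.032 and 0.034. These other genes were not matched for length. Over all distances the median was -0.068 at like length and -0.12 at like total span. The spread between libraries of a strain was close to that of genes of like length in HLM23 and smaller in the WT. The median SD of the log2 values was 0.27 against 0.26 in HLM23 and 0.16 against 0.20 in the WT. Against genes of like length and level it was 0.27 against 0.23 in HLM23 and 0.16 against 0.18 in the WT.

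The long-intron genes that rose most did so by 3 to 5 times, and one of them was among the abundant transcripts of the cell. By the naming rule these had an adjusted p under 0.05, a mean of at least 10 reads and no overlap between strains, which 21 rising and 53 falling genes met, so the absence of overlap follows from the choice. NO12G00230 lies on the plus strand at chr12:68548-74162, with a gene length of 2451 bases and 3164 non-exonic bases, and overlaps 1 listed gene. Its normalised read count was 763, 555 and 366 in HLM23 replicates 1, 2 and 3 and 39.4, 230 and 104 in the WT, so the WT values were spread widely. In limma the log2 fold change was 2.44 ± 0.49 SE at an adjusted p of 0.0041, with 1.79 without WT replicate 1 and 3.05 without WT replicate 2.

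NO30G00350, on the plus strand at chr30:142431-156806, has 11422 non-exonic bases beside a gene length of 2954 bases, so introns would fill 79.5% of its span, and it overlaps 1 listed gene. It stood at 344, 303 and 310 in HLM23 and at 60.1, 111 and 64.5 in the WT. The HLM23 values lay close together, whereas WT replicate 2 stood above the other WT libraries. In limma the log2 fold change was 2.06 ± 0.27 SE at an adjusted p of 0.00061, with 1.90 without WT replicate 1 and 2.34 without WT replicate 2. It is the only one of the 13 genes with 8000 or more non-exonic bases that was called higher (7.69%, against 14.5% of all tested genes), while 4 of those 13 were called lower (30.8%, against 14.3%). Of the 13, 10 (76.9%) overlap a listed gene and 8 (61.5%) hold one inside, so their values are less certain.

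The most abundant long-intron gene lies on the minus strand at chr22:531060-543526, with 6089 bases of gene length and 6378 non-exonic bases. Its normalised read count was 119763, 102977 and 132403 in HLM23 and 23630, 31196 and 32509 in the WT. The HLM23 mean was 4.07 times the WT mean, with a log2 fold change of 2.03 ± 0.20 SE in limma at an adjusted p of 0.00026. At 12111 reads per kb over the 6 libraries it ranked 143rd of all listed genes in level per kb.

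A second abundant gene rose in the same direction. The gene at chr9:116459-131703, on the plus strand with 7018 non-exonic bases, stood at 31220, 26361 and 30322 in HLM23 and at 7450, 10754 and 8538 in the WT (limma, log2 fold change 1.73 ± 0.17 SE and adjusted p = 0.00029). All HLM23 values were more than 2 times any WT value. The gene at chr13:895131-900583 has 3002 non-exonic bases and stood at 2019, 1425 and 1253 against 325, 620 and 355 (log2 fold change 1.88, limma adjusted p = 0.00064). The gene at chr11:1080672-1086973 stood at 1398, 1138 and 1601 against 416, 538 and 342 (log2 fold change 1.68, limma adjusted p = 0.00044).

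Among the 6 largest falls, 4 lay on chromosome 24. The deepest was that of NO17G02980, on the plus strand at chr17:873289-882602, with 3883 bases of gene length, 5431 non-exonic bases and an overlap with 1 listed gene. It stood at 279, 434 and 363 in HLM23 and at 1872, 1076 and 2191 in the WT, a fall to 20.9% of the WT mean. In limma the log2 fold change was -2.21 ± 0.26 SE at an adjusted p of 0.0004, and it was the only long-intron gene called at least 4-fold lower. That is 1 of 224, near the share over all tested genes, of which 45 of 9452 were so called. At least 4-fold higher were 4 of the 224, against 156 of the 9452. NO24G00220, on the minus strand at chr24:66408-73050 with 3571 non-exonic bases, stood at 474, 980 and 584 in HLM23 and at 2169, 1170 and 2298 in the WT. The replicate 2 libraries came closest to each other, and in limma the log2 fold change was -1.48 ± 0.29 SE at an adjusted p of 0.0036, or -2.08 without both of them.

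Of the 10 long-intron genes of chromosome 24, 5 were called lower and 1 higher, whereas the 230 other tested genes there gave 37 called lower (16.1%) and 37 higher (16.1%). This chromosome was singled out after the values were seen. The gene at chr24:24493-31178 stood at 142, 222 and 175 in HLM23 and at 736, 340 and 471 in the WT (log2 fold change -1.47, limma adjusted p = 0.0032). The gene at chr24:618716-631654, with 6710 non-exonic bases, stood at 1958, 3197 and 2010 against 7359, 4791 and 6986 (log2 fold change -1.43, limma adjusted p = 0.00098). The gene at chr24:267052-276876 was scarce and overlaps 1 listed gene. It stood at 4.34, 12.7 and 13.0 against 23.5, 28.7 and 27.2 (log2 fold change -1.44, limma adjusted p = 0.046), with adjusted p-values from 0.027 to 0.16 over the alternatives. It missed the threshold in most of these, the authors' deposited values among them, so its place among the 5 called lower is uncertain. On chromosome 6, the gene at chr6:1255226-1263432 stood at 398, 566 and 572 against 1855, 927 and 1394 (log2 fold change -1.40, limma adjusted p = 0.0019).

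**Figure D5:**
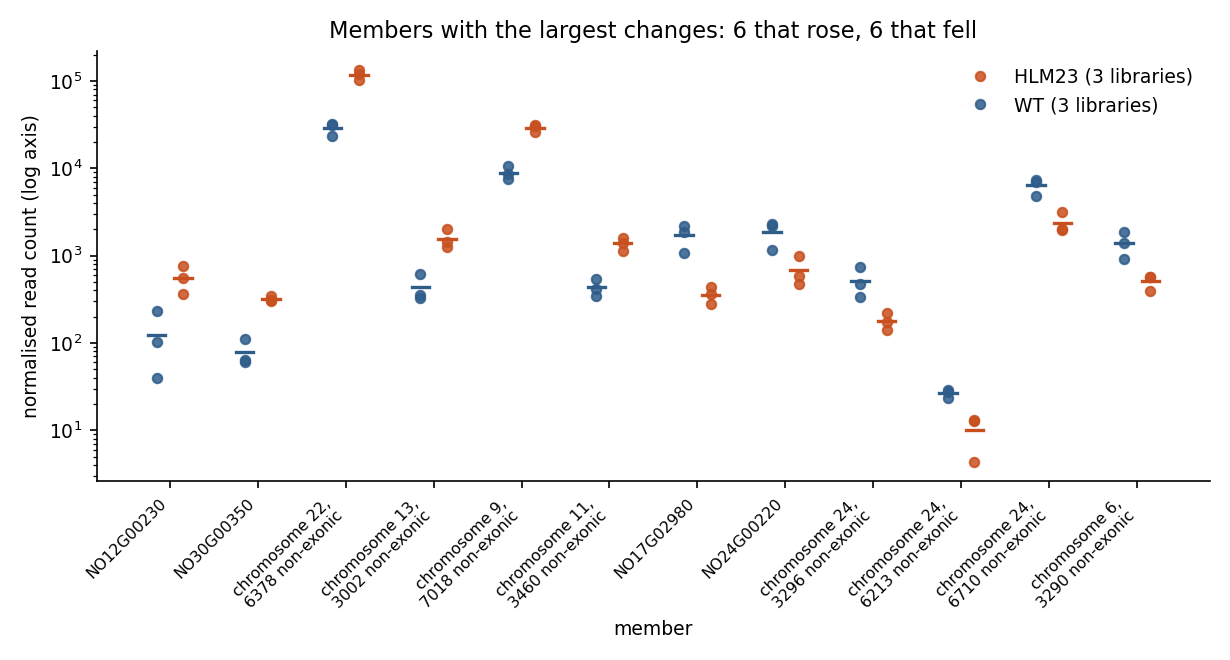
Normalised read count (log axis) of the 6 long-intron genes with the largest rise and the 6 with the largest fall by the naming rule, 3 HLM23 libraries (orange) and 3 WT libraries (blue) each, with bars at the means. The gene of chromosome 22 with 6378 non-exonic bases stands highest, at 102977 to 132403 in HLM23.

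Of the 5 genes with the longest non-exonic spans, 2 passed the threshold, both with lower values in HLM23. The threshold was passed by 28.9% of all tested genes and 33.5% of the long-intron genes, and 5 genes are too few to differ from these shares. The longest, on the plus strand at chr24:676508-690752, has 12957 non-exonic bases beside 1288 bases of gene length and has 2 listed genes inside its span. It stood at 246, 258 and 141 in HLM23 and at 352, 368 and 412 in the WT (limma, log2 fold change -0.85 ± 0.25 SE and adjusted p = 0.025, or 0.06 and 0.097 without WT replicate 1 or 3). The gene at chr28:18774-39636, with 12903 non-exonic bases, overlaps no listed gene and stood at 7170, 6564 and 5311 against 6355, 6754 and 9466. Its strains overlapped (log2 fold change -0.23, limma adjusted p = 0.37). The gene at chr3:995674-1009471 has 12756 non-exonic bases, 1042 bases of gene length and 3 listed genes inside. It stood at 255, 364 and 328 against 346, 319 and 349, with overlapping strains (log2 fold change -0.11, limma adjusted p = 0.71). The gene at chr9:53651-70961 stood at 509, 605 and 665 against 1063, 678 and 968 (log2 fold change -0.59, limma adjusted p = 0.047), with adjusted p-values from 0.014 to 0.19 over the alternatives. The gene at chr19:23818-40543 stood at 2409, 3615 and 4075 against 4195, 4008 and 4052, and did not pass the threshold (log2 fold change -0.31, limma adjusted p = 0.23). Each of these last genes has 1 listed gene inside.

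Beyond those of chromosomes 22 and 9, the highest levels per kb among long-intron genes came from 3 genes with different changes. The gene at chr20:670702-679280 overlapped between the strains, at 15927, 17153 and 16773 in HLM23 and 17807, 16365 and 15478 in the WT (limma, log2 fold change 0.0076 ± 0.15 SE and adjusted p = 0.97). The gene at chr8:166463-175354 stood at 6706, 8449 and 8082 against 12856, 10194 and 9910 (log2 fold change -0.50, limma adjusted p = 0.039), with adjusted p-values from 0.019 to 0.17 over the alternatives. The gene at chr19:153214-159227, which has 1 listed gene inside its span, stood at 4590, 3530 and 3952 against 2210, 2613 and 2350 (log2 fold change 0.75, limma adjusted p = 0.0044). Levels of 4287, 2262 and 2218 reads per kb ranked these genes 366th, 688th and 697th of all listed genes.

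The limit of 3000 bases cut through a continuous range. The 3 genes just inside it have 3002, 3004 and 3008 non-exonic bases and mean levels of 408, 856 and 293 reads per kb. The 3 just outside have 2992, 2996 and 2999 and levels of 89.4, 212 and 239. With a limit of 2000 bases, 536 genes gave a level ratio of 1.84 to genes of like length and a difference in median log2 fold change of -0.089. With a limit of 5000 bases, 60 genes gave 1.91 and -0.19.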

How the data were processed

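Messenger RNA of 3 HLM23 and 3 WT libraries was measured. Per the labels' protocols, a company extracted RNA from 22 ml of culture, prepared libraries from 1 μg with a kit for messenger RNA, sequenced pairs of reads and quantified transcripts. Per the submitters' processing notes, the tools were fastp, HISAT2, featureCounts and DESeq2. Versions are not stated. The sources used here give no settings, strand handling, build or annotation. The deposited values of the 6 libraries are a signal, scaled between libraries by the authors. In each library 100% of its values are whole multiples of 1 step within 0.01 of a read, which gives the depths printed above. These values are called normalised read counts. No count model was run, because an automatic test for whole reads refused the columns of HLM23 replicate 3 and WT replicate 3, whose step is near 1. The FPKM deposited by the authors served only to read the length behind it, for genes with more than 20 reads. The authors' log2 fold changes with their p-values, raw and adjusted, served as an alternative.

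Samples were grouped by title. The 9452 genes with a mean of at least 1 were tested in R 4.3.3 with limma 3.58.1, fitting strain alone to log2(value + 1) with a trend of variance on mean, and p-values were adjusted by Benjamini-Hochberg with 0.05 as the threshold. On this scale the fold changes of low genes are understated. The fit was tested on simulated data with an assumed spread, where it called 53% of 2-fold and 100% of 4-fold changes. Of its calls there, 5.56% fell on unchanged genes, and with no change simulated there were 0 calls. The simulation changed far fewer genes than were called in the data, so these shares need not hold there. Some changes of about 2-fold may be missed in the data, although smaller ones were also called. The gene at chr8:166463-175354, for example, was called at a log2 fold change of -0.50 (limma adjusted p = 0.039). Genes of like length came from classes limited at 1000, 1500, 2000, 2500, 3000, 4000, 5000, 7000 and 10000 bases. Medians of the other genes per class were weighted by the number of long-intron genes in it, and such differences are descriptions without a test. Genes named by ID were the 2 with the largest rise and the 2 with the largest fall. The next 4 each way, the 5 longest, the 5 of highest level and the 3 on each side of the limit were given by position. The members, classes and rules were chosen with earlier results of these data known. Sequences are not shown, as no genome was used here.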

Additional observations from a re-analysis of the deposited data

How the results depend on the processing

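The fit without both replicate 2 libraries and the comparisons at like level and like total span were chosen after the data were seen. Reported were 75 calls, 22 higher and 53 lower. An adjusted p under 0.01 left 42, 19 of them higher and 23 lower, and the share called exceeded that at like length by 2.32 percentage points. Leaving out 1 library gave 43 to 78 calls, 19 to 26 higher and 24 to 58 lower. Limits of 2000 and 5000 bases gave 187 calls (73 higher, 114 lower) and 22 (6 and 16), since they hold other numbers of genes, and leaving out overlapping genes gave 35 lower. In these settings the share called differed from that at like length by 3.35, 3.09 and -1.52 percentage points. Shares by direction over other genes were not worked out per setting, so these counts do not show whether the lean held. In the main fit the share called exceeded that at like length by 0.476 percentage points. The excess was 6.77 without both replicate 2 libraries and 0.0815 to 5.31 without 1 library. Over the other settings this difference went both ways, from -1.75 points with a length trend removed to 4.80 with equal library totals. From the share at like total span it was -2.06 points. The median difference from genes of like length ran from -0.22 to -0.058 without 1 library, was -0.14 with a length trend removed (27 calls higher, 43 lower) and -0.13 at like length and level. Against genes of like total span it was -0.090 and the level ratio 2.25. Equal library totals moved the median of all genes to -0.11 and that of the long-intron genes to -0.32, leaving their difference from genes of like length at -0.14, with 22 calls higher and 60 lower.

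With the replicate block there were 70 calls, of which 67 were among the 75, and the share called differed from that at like length by -0.666 percentage points. The genes at chr9:53651-70961 and chr8:166463-175354 then missed the threshold, at adjusted p = 0.052 and 0.061. Deviations from the strain means correlated at -0.069, -0.11 and 0.15 between libraries of like replicate number. Libraries of unlike number were not compared, so these values cannot decide whether the numbers pair the libraries. The authors' deposited table calls 81 of the genes, 73 of them among the 75 and all 73 in the same direction. The share it calls differed from that at like length by -0.084 percentage points. Of 320 values for the 20 genes described, 290 kept direction and call, 25 lost the call and 5 changed sign. Those were in genes near no change: the gene at chr20:670702-679280 (-0.10 with equal totals, -0.016, -0.040 and -0.022 without HLM23 replicate 2, WT replicate 3 or both replicate 2 libraries, and highest at 0.062 without WT replicate 1) and the gene at chr3:995674-1009471 (0.031 without HLM23 replicate 1). Depth limits the genes with few reads, of which this group has 7 with a mean under 100.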
